A study of Mus musculus with 6 samples.

Results

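The genes described here are the 39 genes of homologous recombination and Fanconi repair, chosen by name and not by their values, among the 24786 gene symbols measured by RNA-sequencing in Raw264.7 cells. They run from the kinases that sense damaged DNA, through the nucleases that resect a broken end and the *Brca* genes that prepare the resected end, to the strand exchange factors, the RecQ helicases and the Fanconi genes. From textbook knowledge, 18 of them were classed as proliferation-linked (transcribed mainly in S phase or driven by E2F factors) and 21 as constitutive. Genes and classes were chosen with earlier results of these data known. Raw264.7 is a mouse macrophage line. The labels derive it from a tumor induced by Abelson murine leukemia virus and give the strain as C57BL/6 and the age as postnatal day 21. Both groups were infected with a lentivirus, which carried a control shRNA in the 3 libraries of the sh-NC group (genotype control) and an shRNA directed at *Etv5*, an ETS family transcription factor, in the 3 libraries of the sh-*Etv5* group. The labels name Lipofectamine 3000 for the infection, measurement after 24 or 48 h and cells in logarithmic growth, and the paper calls the sequenced cells stably transfected. Which of the shRNAs was sequenced is not stated. Nothing states that the libraries of a group were separate cultures, so p-values measure the spread between libraries, which may be technical.

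Homologous recombination repairs a broken chromosome by copying the intact sister chromatid, so it works mainly in S and G2 phase, when a sister is present. The broken end is resected to single-stranded DNA, BRCA1, PALB2 and BRCA2 prepare that DNA for strand exchange, and the end then invades the sister with the help of the strand exchange factors. The Fanconi pathway acts on crosslinks that block replication forks: a core complex attaches ubiquitin to the FANCD2-FANCI pair, which then recruits nucleases. Many of these genes are transcribed with the replication genes in cycling cells, whereas others are kept at a steady level.

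Expression values are RPKM (read coverage corrected for the length of a gene and the size of its library), whose read depth is unknown. Fold changes are differences of log2(RPKM + 1), which understate the change of genes with low RPKM, and were tested with limma. All 39 genes were among the 10738 genes with at least 1 RPKM in at least 3 libraries. A gene was called at an adjusted p under 0.05, and the smallest p that an exact permutation of the 3 and 3 libraries allows is 0.1. The targeted gene, *Etv5*, fell by 0.78 on the log2 scale (limma adjusted p = 2.74e-07). The median over all tested genes was -0.05. RPKM sums were between 320462 and 322949 in sh-NC and between 330454 and 340257 in sh-*Etv5* libraries. Of 10 macrophage markers, 9 were expressed at 1 RPKM or more, and *Mertk* was below that level. The summed macrophage markers stood at 4490 to 4616 RPKM in sh-NC and 3587 to 3704 RPKM in sh-*Etv5* libraries, a sum made up largely by *Lyz2*. The markers went both ways, with 4 called lower and 4 higher and a median log2 fold change of 0.06, from *Csf1r* at -0.81 to *Itgam* at 1.88. Summed markers of fibroblasts were at 0.0112 to 0.0518 RPKM in sh-NC and 0.764 to 1.10 RPKM in sh-*Etv5* libraries. Those of epithelial or endothelial cells were at 0.195 to 0.361 RPKM in sh-NC and 1.07 to 1.21 RPKM in sh-*Etv5* libraries. Those of lymphoid cells overlapped between the groups and reached at most 0.382 RPKM. The neutrophil list rose from at most 0.491 RPKM to between 15.6 and 19.7 RPKM through *S100a8*, while 4 of its 6 genes were at 0 in every library. The part of these markers in the results below was not tested.

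Most of the repair genes were lower in sh-*Etv5* cells, and none was called higher. Of the 39 genes, 31 were called lower, against 41% of all tested genes called lower, and 0 were called higher, against 33.3% of all tested genes called higher. The remaining 8 were not called, and 74.3% of all tested genes were called in either direction. The median log2 fold change of the 39 genes was -0.46. A fall of at least 0.5 on the log2 scale was called in 17 of them, against 15% of all tested genes. In 32 of the 39 genes every sh-*Etv5* library was below every sh-NC library, against 42.1% of all tested genes.

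**Figure D1:**
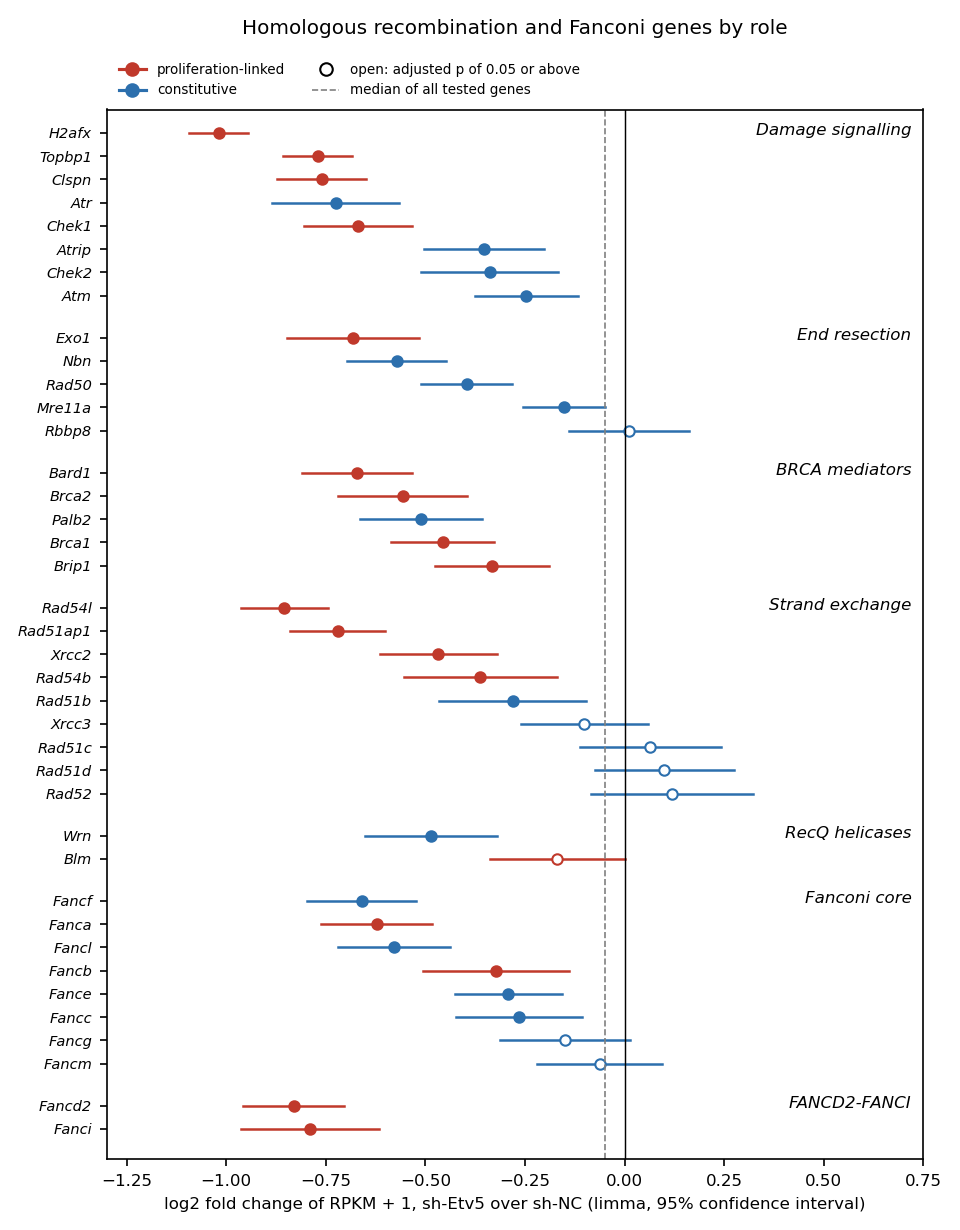
Log2 fold change of RPKM + 1 (horizontal axis) for each of the 39 genes, grouped by role, with the 95% confidence interval of limma; red marks proliferation-linked and blue constitutive genes, open circles genes that were not called, and the dashed line the median of all tested genes at -0.05. The values run from -1.02 for *H2afx* to 0.12 for *Rad52*, and the 8 open circles are the 7 constitutive genes and *Blm* that were not called.

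The median fall was larger among the proliferation-linked genes than among the constitutive genes. Of the 18 proliferation-linked genes, 17 were called lower (94.4%, against 41% of all tested genes), with *Blm* as the exception. Their median log2 fold change was -0.67, ranging from -1.02 to -0.17. Of the 21 constitutive genes, 14 were called lower (66.7%, against the same 41%), and their median was -0.28, ranging from -0.73 to 0.12. In RPKM, the median change was -41.6% for the proliferation-linked and -23.3% for the constitutive genes. Falls of at least 0.5 on the log2 scale were called for 12 proliferation-linked (66.7%) and 5 constitutive genes (23.8%), against 15% of all tested genes. The 5 constitutive genes were *Palb2*, *Nbn*, *Fancf*, *Fancl* and *Atr*, so the classes overlapped in size of change. The difference of the class medians was -0.39, and it was -0.25 when genes of debatable class were exchanged (*Xrcc2*, *H2afx* and *Topbp1* counted as constitutive, *Palb2*, *Rbbp8* and *Rad51c* as proliferation-linked).

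The class medians were steady from library to library. As deviations from the sh-NC mean on the log2(RPKM + 1) scale, the proliferation-linked median was -0.68, -0.65 and -0.62 in the sh-*Etv5* libraries. The constitutive median was -0.30, -0.26 and -0.23 in the same libraries. The sh-NC libraries lay between -0.024 and 0.016 for the first class and between -0.014 and 0.0027 for the second, so the libraries of the groups were separated in each class. Genes of a class share the same libraries and are not replicates, and no test was made of the difference between the classes. Constitutive genes were also less expressed, with a median of 6.53 RPKM in sh-NC cells against 9.02 RPKM for the proliferation-linked genes. Among genes with a mean of at least 5 RPKM, the class medians were -0.34 and -0.74.

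**Figure D2:**
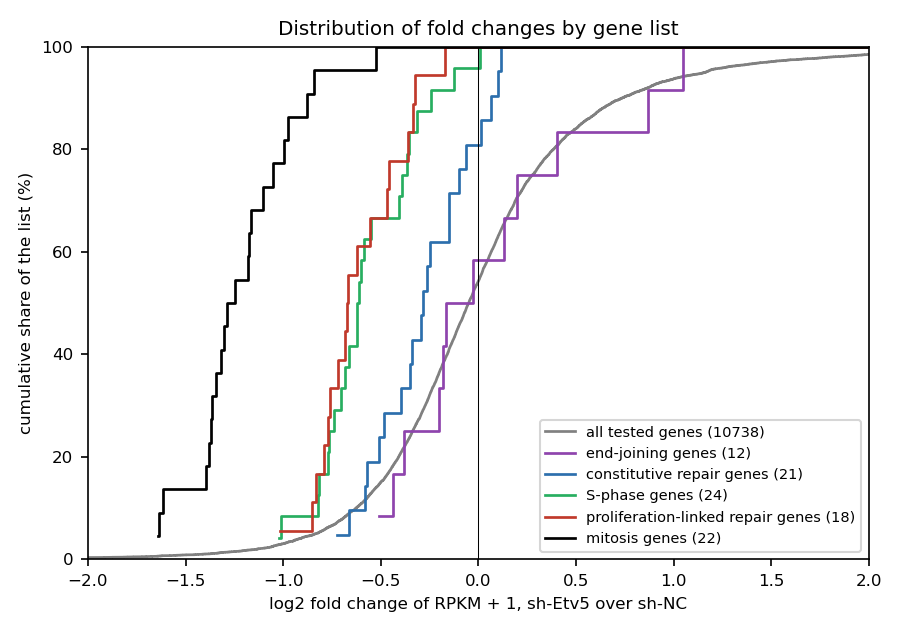
Cumulative share of each gene list in percent (vertical axis) against the log2 fold change of RPKM + 1 (horizontal axis, drawn from -2 to 2), for the 18 proliferation-linked and 21 constitutive repair genes, the S-phase, mitosis and end-joining lists and all 10738 tested genes. The median of the proliferation-linked genes (-0.67) is close to that of the 24 S-phase genes (-0.62). The constitutive median (-0.28) lies between these and that of all tested genes (-0.05), and the mitosis median is the lowest (-1.27).

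Genes of replication and of mitosis moved with the repair genes. Of 24 S-phase genes, 22 were called lower (91.7%, against 41% of all tested genes) and 0 higher (against 33.3%). Their median log2 fold change was -0.62. The largest falls were those of *Uhrf1*, which keeps DNA methylation after replication (-1.02), and *Mcm7*, a subunit of the replicative helicase (-1.01). The cyclin E gene *Ccne1* (0.01, limma adjusted p = 0.874) and the S-phase regulator *E2f1* (-0.12, limma adjusted p = 0.054) were not called. All 22 mitosis genes were called lower, against 41% of all tested genes, with a median of -1.27. The largest falls among them were those of *Cenpa*, the centromeric histone, and *Mki67*, the proliferation marker, at -1.64 each. The median of the proliferation-linked repair genes was thus close to that of the S-phase genes, and the median of the mitosis genes was lower than either. The part of these lists in the fall of the repair genes was not tested. In bulk RNA, fewer cells in S phase and less RNA per cell cannot be told apart.

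Promoter sequence was examined because E2F factors, which drive S-phase transcription, and ETS factors bind short known letters. RefSeq promoters on GRCm38.p6 (250 bases before to 50 after the start) were found for 29 of the 39 genes. The E2F letters searched were TTTCCCGC, TTTCGCGC, TTTGCCGC and TTTGGCGC on either strand. They occurred in 7 of 29 promoters (24.1%), against 5.05% of the promoters of tested genes and 2.6% of all RefSeq promoters in the table. By class, the matches were 4 of 13 proliferation-linked and 3 of 16 constitutive promoters, and E2F control was part of the reason for the first class. For each gene with a match, 30 bases around it are printed here, 5′ to 3′ on the strand of the gene, with the matched letters or their reverse complement in capitals. *Rad51c* has a second promoter, not printed, that holds TTTCGCGC beginning 11 bases after its start. The capitals begin between 209 bases before the start (*Bard1*) and 21 bases after it (*Clspn*). The first 4 sequences belong to proliferation-linked genes that fell by at least 0.5, and the other 3 to constitutive genes, of which only *Chek2* was called lower. The last line shows the only match to the ETS letters CCGGAAGT among the 29 promoters.
Brca2 (chr5:150522442-150522471, plus strand): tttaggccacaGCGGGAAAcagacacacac
Bard1 (chr1:71103163-71103192, minus strand): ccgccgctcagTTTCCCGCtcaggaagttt
Clspn (chr4:126556990-126557019, plus strand): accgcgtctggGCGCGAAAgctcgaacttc
Topbp1 (chr9:103305187-103305216, plus strand): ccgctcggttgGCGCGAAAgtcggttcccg
Rad51c (chr11:87404941-87404970, minus strand): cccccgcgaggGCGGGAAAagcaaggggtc
Fancg (chr4:43010335-43010364, minus strand): tttcttttcagTTTCCCGCggaaccgtctc
Chek2 (chr5:110839820-110839849, plus strand): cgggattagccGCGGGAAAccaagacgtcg
Palb2, ETS letters (chr7:122133053-122133082, minus strand): tgattccagctACTTCCGGttgatcggcca

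Genes with and without the E2F letters overlapped in their change. The 7 genes with a match had a median log2 fold change of -0.56, ranging from -0.77 for *Topbp1* to 0.06 for *Rad51c*. The 22 genes without one had a median of -0.34, ranging from -0.85 to 0.12. Genes for which no promoter was found are left out, among them *H2afx* (-1.02) and *Fancd2* (-0.83), but also *Rad51d* (0.10) and *Rbbp8* (0.01). The ETS letters were in 1 of 29 promoters, against 10.5% of the promoters of tested genes and 4.31% of all promoters. The letters of the cell cycle homology region, TTTGAA, were in 2 of 29 promoters (6.90%), against 14.5% of the promoters of tested genes and 20.2% of all promoters, and CCAAT was in 19 of 29 (65.5%), against 43.7% and 41.1%. A match is a description of these letters and not a binding site, and these motifs were chosen after the fold changes had been seen.

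The damage signalling genes were all called lower, 8 of 8, against 41% of all tested genes, with a median log2 fold change of -0.70. The change was largest for *H2afx*, the histone variant that is phosphorylated around a break and the most highly expressed of the 39 genes. Its level was 112, 112 and 114 RPKM in sh-NC and 56.6, 54.1 and 54.8 RPKM in sh-*Etv5* libraries. The groups were far apart. From a mean of 113 ± 1.35 RPKM it fell by 51.1% to 55.2 ± 1.31 RPKM (SD over 3 libraries, log2 fold change -1.02, limma adjusted p = 4.52e-10). Of its exonic bases, 10.2% are shared with *Gm44335*.

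Within the 39 genes, the branch of ATR, the kinase that answers to single-stranded DNA at stalled forks, was lower from sensor to effector. *Atr* itself, a constitutive gene, was at 5.78, 5.79 and 6.44 RPKM in sh-NC and at 2.92, 3.33 and 3.46 RPKM in sh-*Etv5* libraries. Its groups did not overlap, and its log2 fold change of -0.73 (limma adjusted p = 3.72e-06) was the largest fall of any constitutive gene. *Topbp1*, the activator of ATR, went from 39.6, 39.5 and 40.3 RPKM to 22.1, 23.4 and 23.2 RPKM (-0.77, limma adjusted p = 1.38e-08). *Clspn*, the adaptor between ATR and CHK1, went from 16.3, 16.3 and 16.4 RPKM to 9.21, 9.76 and 8.77 RPKM (-0.76, limma adjusted p = 1.24e-07). *Chek1*, which encodes the effector kinase CHK1, was at 11.8, 12.9 and 12.0 RPKM in sh-NC and at 7.30, 6.81 and 7.88 RPKM in sh-*Etv5* libraries (-0.67, limma adjusted p = 1.86e-06). In each of these genes all sh-*Etv5* libraries were below all sh-NC libraries. *Atrip*, the obligate partner of ATR, was called lower by less (-0.35, from 6.57 ± 0.305 to 4.94 ± 0.418 RPKM, limma adjusted p = 0.000699). Of its exonic bases, 16.0% are shared with *Trex1*. *Trex1* itself went from 36.1 ± 1.89 RPKM in sh-NC to 30.7 ± 2.81 RPKM in sh-*Etv5* libraries (-0.23). The part of *Trex1* reads in the values of *Atrip* was not tested. Of further genes of this branch outside the 39, *Rad9a* (0.10), *Rad17* (0.10) and *Rad1* (-0.14) were not called, and *Hus1* (-0.34) was called lower. Also called lower were *Etaa1* (-0.53), *Rpa1* (-0.47), *Rpa2* (-0.53), *Rpa3* (-0.67) and *Timeless* (-0.40).

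*Atm*, which encodes the kinase that responds to broken ends, and *Chek2* fell by less than *Atr* and *Chek1*. *Atm* went from 11.1 ± 0.478 to 9.16 ± 0.597 RPKM (-0.25, limma adjusted p = 0.00271). *Chek2*, whose product CHK2 is activated by ATM, went from 7.71 ± 0.281 to 5.92 ± 0.728 RPKM (-0.34, limma adjusted p = 0.0022). Their groups did not overlap either.

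Among the end resection genes, 4 of 5 were called lower (80%, against 41% of all tested genes) and the median was -0.40. *Exo1*, the exonuclease of long-range resection and the only proliferation-linked gene of the group, was at 6.32, 7.27 and 7.53 RPKM in sh-NC and at 3.68, 4.26 and 4.08 RPKM in sh-*Etv5* libraries. All knockdown libraries were lower (-0.68, limma adjusted p = 8.5e-06). The genes of the MRE11-RAD50-NBS1 complex, which binds the broken end, were all called lower but by different amounts. *Nbn*, which encodes NBS1, went from 11.4, 12.8 and 11.8 RPKM to 7.55, 7.79 and 7.89 RPKM (-0.57, limma adjusted p = 3.26e-06). *Rad50* fell by 0.40 (from 13.2 ± 0.406 to 9.80 ± 0.466 RPKM) and the nuclease gene *Mre11a* by 0.15 (from 12.2 ± 0.0742 to 10.9 ± 0.300 RPKM, limma adjusted p = 0.012). *Rbbp8*, which encodes CtIP, the cofactor that starts resection, was the constitutive gene with the smallest change. It was at 5.99, 6.57 and 7.04 RPKM in sh-NC and at 6.19, 6.65 and 6.94 RPKM in sh-*Etv5* libraries. The sh-*Etv5* values lay within the sh-NC range, and the 95% interval of its log2 fold change ran from -0.14 to 0.16 (limma adjusted p = 0.88).

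The genes of the BRCA mediators, which prepare resected DNA for strand exchange, were all called lower, with a median of -0.51. This was 5 of 5, against 41% of all tested genes. *Bard1*, the partner of BRCA1 in its ubiquitin ligase, was at 4.98, 5.37 and 5.41 RPKM in sh-NC and at 2.89, 2.88 and 3.001 RPKM in sh-*Etv5* libraries (-0.67, limma adjusted p = 2.22e-06). *Brca2*, the breast cancer susceptibility gene that mediates strand exchange, went from 3.21, 3.16 and 3.55 RPKM to 2.02, 1.97 and 1.79 RPKM (-0.56, limma adjusted p = 3.59e-05). The groups of each were separated by more than the range within either. *Palb2*, the constitutive bridge between BRCA1 and BRCA2 and the gene with the ETS letters shown above, went from 4.86, 4.60 and 4.14 RPKM to 2.86, 2.86 and 2.92 RPKM (-0.51, limma adjusted p = 4.72e-05). *Brca1* (-0.46, from 8.55 ± 0.263 to 5.96 ± 0.360 RPKM) and the helicase gene *Brip1* (-0.33, from 4.37 ± 0.143 to 3.26 ± 0.172 RPKM) were called lower by under 0.5.

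The strand exchange genes were divided. Of 9 genes, 5 were called lower (55.6%, against 41% of all tested genes) and 4 were not called, and the median was -0.28. *Rad54l*, the motor protein that drives strand invasion, was at 24.97, 25.3 and 24.7 RPKM in sh-NC and at 13.5, 14.1 and 12.5 RPKM in sh-*Etv5* libraries. This fall of 0.85 on the log2 scale (limma adjusted p = 3.84e-08) was exceeded among the 39 genes only by that of *H2afx*. *Rad51ap1*, which stimulates strand exchange, went from 17.6, 18.2 and 17.7 RPKM to 10.0, 9.99 and 11.3 RPKM (-0.72, limma adjusted p = 3.32e-07). *Rad54b*, a relative of *Rad54l*, fell by 0.36 (from 2.70 ± 0.10001 to 1.89 ± 0.298 RPKM), but 35.9% of its exonic bases are shared with *Fsbp*, whose own change was -0.06.

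*Rad51b*, *Rad51c*, *Rad51d*, *Xrcc2* and *Xrcc3*, related genes that assist strand exchange, did not move as a unit. *Xrcc2* fell by 0.47 (from 5.18 ± 0.236 to 3.47 ± 0.229 RPKM, limma adjusted p = 6.76e-05) and *Rad51b* by 0.28 (from 1.70 ± 0.116 to 1.22 ± 0.148 RPKM, limma adjusted p = 0.01). The other 3 genes were not called. *Rad51c* was at 2.86, 2.80 and 2.32 RPKM in sh-NC and at 2.87, 2.95 and 2.64 RPKM in sh-*Etv5* libraries, and *Rad51d* at 1.79, 2.16 and 2.24 RPKM against 2.25, 2.31 and 2.26 RPKM. *Rad51d* was the only one of the 39 genes with every sh-*Etv5* library above every sh-NC library, by a margin far smaller than the sh-NC range (limma adjusted p = 0.272). The 95% intervals of the log2 fold changes were -0.11 to 0.24 for *Rad51c*, -0.07 to 0.27 for *Rad51d* and -0.26 to 0.06 for *Xrcc3*. *Rad52*, which anneals single strands, had the largest positive value, 0.12, with an interval from -0.08 to 0.32 (limma adjusted p = 0.261). Its libraries overlapped, at 7.35, 7.48 and 6.22 RPKM in sh-NC and 8.69, 7.85 and 6.62 RPKM in sh-*Etv5* cells. These intervals leave room for small changes in either direction.

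**Figure D3:**
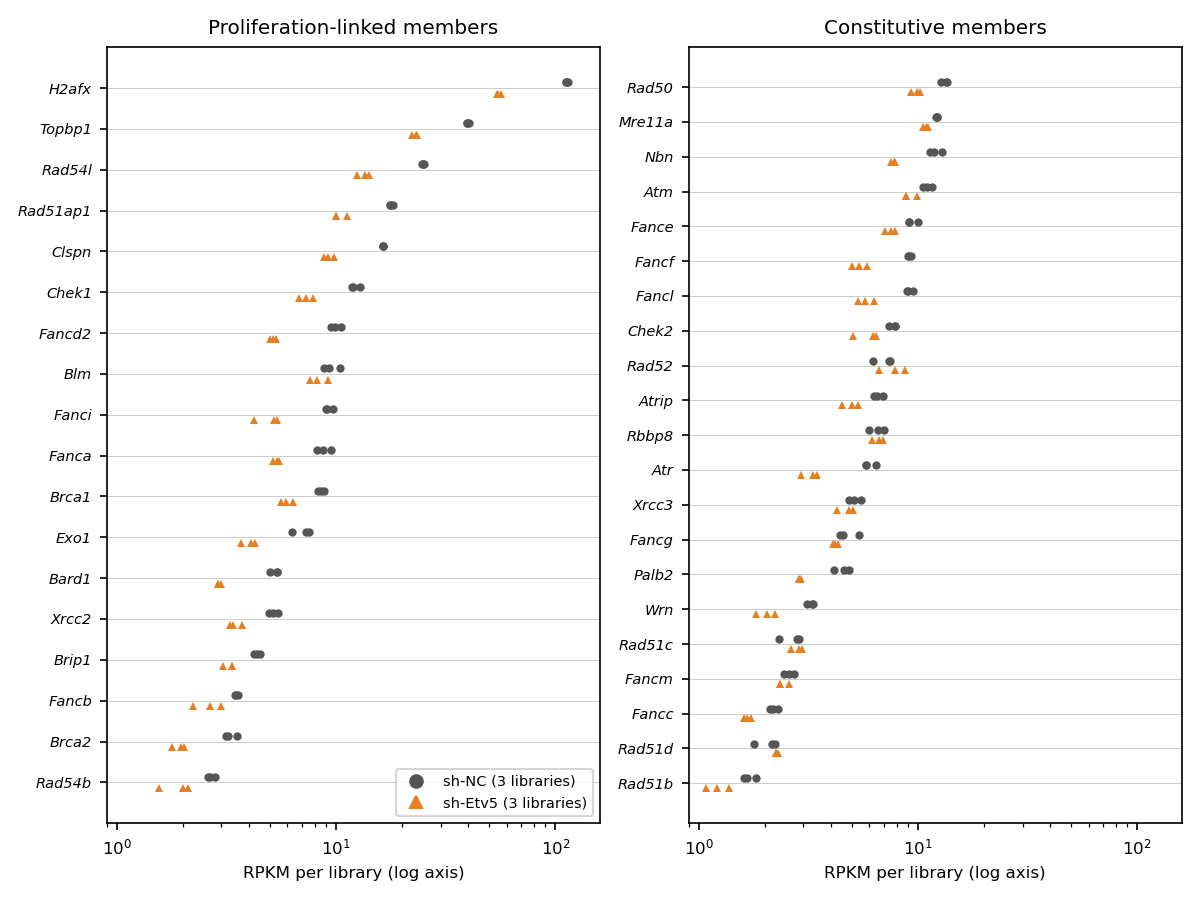
RPKM on a log axis in each sh-NC and sh-*Etv5* library (points, 3 per group) for each of the 39 genes, with the proliferation-linked genes on the left and the constitutive genes on the right. The groups stand apart for genes such as *H2afx* and *Rad54l* and overlap for *Blm* and *Rbbp8*.

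Of the 2 RecQ helicase genes, 1 was called lower (50%, against 41% of all tested genes). *Blm*, a proliferation-linked gene whose product dissolves recombination intermediates, was at 8.78, 9.27 and 10.4 RPKM in sh-NC and at 7.60, 9.24 and 8.17 RPKM in sh-*Etv5* libraries. Its groups overlapped, and it was not called (-0.17, 95% interval -0.34 to 0.0014, limma adjusted p = 0.0677). It was called lower without sh-NC replicate 1 (limma adjusted p = 0.0415) and without sh-*Etv5* replicate 2 (limma adjusted p = 0.0178). *Wrn*, a constitutive gene that encodes a helicase with exonuclease activity, was called lower, from 3.25 ± 0.120 to 2.04 ± 0.203 RPKM (-0.49, limma adjusted p = 0.00013).

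Of the 8 Fanconi core genes, 6 were called lower (75%, against 41% of all tested genes) and the median was -0.31. *Fancf*, an adaptor of the core complex, was at 9.32, 9.03 and 9.09 RPKM in sh-NC and at 5.01, 5.41 and 5.87 RPKM in sh-*Etv5* libraries (-0.66, limma adjusted p = 2.2e-06). *Fanca*, the only proliferation-linked core gene besides *Fancb*, went from 9.48, 8.71 and 8.19 RPKM to 5.17, 5.41 and 5.49 RPKM (-0.62, limma adjusted p = 4.18e-06). *Fancl*, the ubiquitin ligase of the complex, went from 9.04, 8.91 and 9.47 RPKM to 6.29, 5.33 and 5.75 RPKM (-0.58, limma adjusted p = 8.55e-06). None of these groups overlapped. *Fancb* (-0.32), *Fance* (-0.29) and *Fancc* (-0.27) fell by less. *Fancg* was not called (-0.15, limma adjusted p = 0.089) although its groups did not overlap, and *Fancm*, the translocase that anchors the complex to DNA, was at -0.06 with an interval from -0.22 to 0.10 (limma adjusted p = 0.447).

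The FANCD2-FANCI pair, the target of the core complex, fell together. *Fancd2* was at 9.53, 9.87 and 10.5 RPKM in sh-NC and at 5.02, 5.17 and 5.32 RPKM in sh-*Etv5* libraries (-0.83, limma adjusted p = 1.76e-07). *Fanci* was at 8.98, 9.66 and 9.10 RPKM in sh-NC and at 4.22, 5.22 and 5.41 RPKM in sh-*Etv5* libraries (-0.79, limma adjusted p = 3.62e-06). The ratio of *Fanci* to *Fancd2* RPKM overlapped between the groups, at 0.928 ± 0.0587 in sh-NC and 0.956 ± 0.0982 in sh-*Etv5* cells.

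The other ratios examined were lower in sh-*Etv5* libraries. These pairs were chosen after the values had been seen, with the gene that fell more as the numerator, so lower ratios follow from the choice. The ratios are given as descriptions with no test. *Nbn* over *Mre11a* was 0.987 ± 0.0615 in sh-NC and 0.714 ± 0.0321 in sh-*Etv5* libraries, and *Atr* over *Atrip* was 0.916 ± 0.0948 and 0.661 ± 0.0994. *Bard1* over *Brca1* was 0.614 ± 0.0169 and 0.492 ± 0.0390. In each of these pairs every sh-*Etv5* library had a lower ratio than every sh-NC library. The same held for *Xrcc2* over *Rad51c*, whose products share a complex, at 1.97 ± 0.321 and 1.23 ± 0.0706, and for *Chek1* over *Chek2*, at 1.59 ± 0.134 and 1.25 ± 0.173. *Fancf* over *Fancm* went from 3.55 ± 0.236 to 2.24 ± 0.219. The ratio of *Atr* to *Atrip* could include reads of *Trex1*, which shares exonic bases with *Atrip* as given above, and this was not tested.

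**Figure D4:**
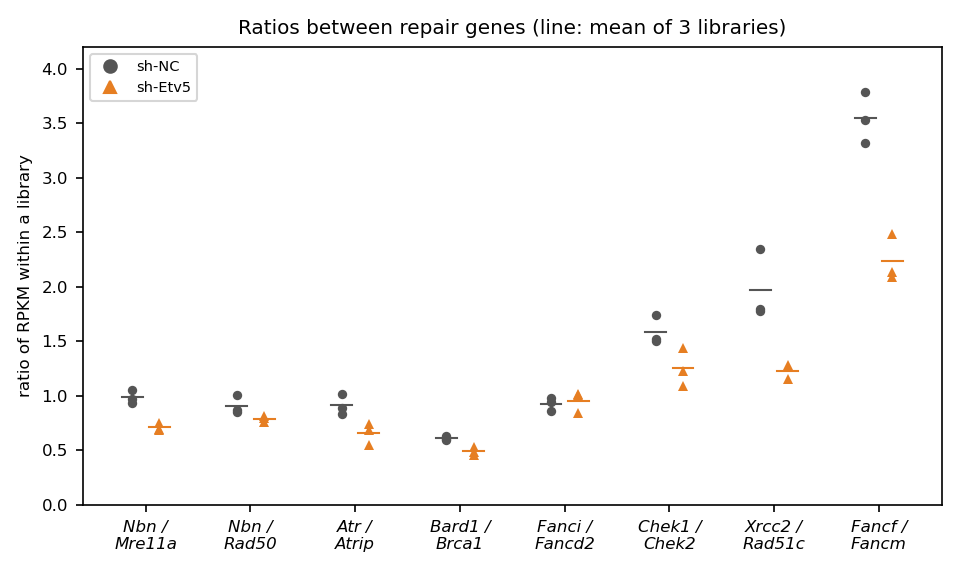
Ratio of the RPKM of 8 pairs of repair genes in each library (points, 3 per group) for sh-NC and sh-*Etv5* cells, with the mean of each group as a line. The ratio of *Fanci* to *Fancd2* overlapped between groups, and the other 7 ratios were lower in every sh-*Etv5* library.

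Of the other genes of homologous recombination and the Fanconi pathway, 54 of a list of 56 were tested, with a median of -0.30. Of these, 37 were called lower (68.5%, against 41% of all tested genes) and 8 higher (14.8%, against 33.3%). The largest falls were those of *Fignl1*, an ATPase of recombination (-0.97, from 19.7 ± 1.11 to 9.57 ± 0.262 RPKM), *Cenps*, a partner of FANCM (-0.88), and *Tipin*, a fork protection factor (-0.85, from 60.2 ± 1.28 to 33.0 ± 2.75 RPKM). Unlike the 39 genes, this list held rises. *Ercc1*, part of the nuclease that unhooks crosslinks, went from 8.99, 7.34 and 7.49 RPKM to 20.0, 21.7 and 20.8 RPKM (1.29, limma adjusted p = 2.19e-08). *Mcm9*, a helicase subunit, rose by 0.63 (from 2.86 ± 0.167 to 4.99 ± 0.475 RPKM), with 19.2% of its exonic bases shared with *Asf1a*. *Sfr1*, a cofactor of strand exchange, rose by 0.60 (from 26.2 ± 1.27 to 40.4 ± 2.37 RPKM). *Ercc4*, *Mcm8* and *Swi5*, which encode the partners of these products in that order, were called lower (-0.23, -0.50 and -0.14). *Ercc4* was close to the threshold (limma adjusted p = 0.049).

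End joining, the route that rejoins broken ends without a template and works throughout the cell cycle, was mixed. Of 14 genes, 12 were tested, of which 5 were called lower and 3 higher, with a median of -0.10. *Polm*, a gap-filling polymerase, rose by 1.05 (from 1.98 ± 0.105 to 5.16 ± 0.394 RPKM), *Xrcc5*, which encodes Ku80, rose by 0.87 (from 3.19 ± 0.265 to 6.65 ± 0.410 RPKM), and *Dclre1c*, which encodes the nuclease Artemis, rose by 0.40. *Rif1*, which restrains resection (-0.51), *Polq*, the polymerase of microhomology-mediated joining (-0.44), and *Prkdc*, the DNA-dependent protein kinase (-0.38), were called lower. *Xrcc6*, which encodes the partner of Ku80, was also called lower (-0.18). The shares called lower and higher, 41.7% and 25%, may be read beside the 41% and 33.3% of all tested genes.

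Several values could include reads of neighbouring genes, because the library kit does not mark strand and the counting is not described. In GENCODE M21 on GRCm38, 12 of the 39 genes share more than 5% of their exonic bases with another gene. Besides those named above, *Fancc* shares 18.6%, *Fanci* 16.0% (with *Polg*, log2 fold change -0.62), *Rad54l* 15.4% (with *Lrrc41*, -0.18), *Fancf* 15.0% (with *Gas2*, -0.33), *Fancl* 13.7% (with *Vrk2*, -0.19), *Fanca* 10.5% (with *Zfp276*, -0.12), *Fancm* 7.07%, *Atr* 5.78% and *Palb2* 5.64%. In sh-NC cells, *Polg* (mean 20.04 RPKM) and *Lrrc41* (31.66 RPKM) were more highly expressed than *Fanci* and *Rad54l*, which share bases with them. *Gas2* (3.98 RPKM), *Vrk2* (8.96 RPKM) and *Zfp276* (5.001 RPKM) were less expressed than *Fancf*, *Fancl* and *Fanca*. On the log2 scale, the falls of these 5 repair genes were larger than those of the genes that overlap them. The part of shared reads in any of these falls was not tested.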

How the data were processed

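Polyadenylated RNA of 3 sh-NC and 3 sh-*Etv5* libraries was sequenced after TruSeq RNA v2 preparation. The authors deposited RPKM values per gene symbol, made from coverage tracks on mm10 per the labels. Aligner, annotation and counting are not given in the sources used here. Because RPKM are scaled to the library, a few strongly expressed genes can shift all others. All 6 columns were used. Genes reaching 1 RPKM in 3 or more libraries were tested on log2(RPKM + 1) in R 4.3.3 by limma 3.58.1 (2-sided, eBayes, intensity trend), and p-values were adjusted by Benjamini-Hochberg over 10738 genes. The test was checked on simulated data. Annotation used GENCODE M21 and Python 3.11.15, pandas 2.3.3 and NumPy 2.4.6, and figures Matplotlib 3.10.9.

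The genes, classes and lists were chosen with earlier results of these data known. Values of every library are given for genes called with an absolute log2 fold change of at least 0.5 and for the least changed gene of each class. *Rad51c*, *Rad51d* and *Rad52* were added after their values were seen. From the other lists, the largest called changes are named, 3 per direction for repair and 2 for the cell cycle lists. *E2f1*, *Ccne1*, *Rad9a*, *Rad17*, *Rad1*, *Hus1*, *Etaa1*, *Rpa1*, *Rpa2*, *Rpa3*, *Timeless*, *Ercc4*, *Mcm8*, *Swi5* and *Xrcc6* were added afterwards. Alternatives were 2 other pseudocounts, other filters and scalings, no trend, a replicate block, a fold threshold, exchanged classes and each library left out. A gene of the wider repair list is not reported here by name.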

Additional observations from a re-analysis of the deposited data

How the results depend on the processing

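The 31 repair genes called lower kept their call in all alternatives in which they were tested, other than the fold threshold. With a pseudocount of 0.1 the class medians were -0.76 (proliferation-linked) and -0.38 (constitutive), and with 0.01 they were -0.77 and -0.39. With libraries scaled to the same sum they were -0.72 and -0.32 while the median of all genes moved to -0.10, and with quantile normalization the constitutive median was -0.37 and the class difference -0.31. With debatable genes exchanged, the medians were -0.59 and -0.34 and their difference -0.25. Without a filter, 5 genes of the list of other homologous recombination and Fanconi genes were called higher, against 8 with the filter. With a mean RPKM of at least 5, 20 of 23 repair genes were called lower (11 proliferation-linked, 9 constitutive, medians -0.74 and -0.34), and 2 end-joining genes were lower and 0 higher. With a log2 fold change of at least 0.5, 1611 genes were lower and 1711 higher, among them 17 of the 39 repair genes (5 constitutive), 16 lower and 3 higher other repair genes and 1 lower and 2 higher end-joining genes. Leaving out each library gave medians from -0.70 to -0.65 and from -0.30 to -0.25, class differences from -0.42 to -0.35, and 0 to 1 genes called higher (*Rad52*, 0.21, limma adjusted p = 0.0377 without sh-*Etv5* replicate 3).

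*Rbbp8* changed sign with the same sum (-0.041), with quantile normalization (-0.019) and with libraries left out (-0.040 without sh-NC replicate 1, -0.021 without sh-*Etv5* replicate 3, up to 0.060), *Rad51c* with quantile normalization (-0.028) and with libraries left out (-0.0037 without sh-NC replicate 3, up to 0.105), and *Rad51d* with quantile normalization (-0.0031). None of these was called. *Blm* was called with the same sum (limma adjusted p = 0.0244), *Fancg* with the same sum (0.034) and quantile normalization (0.0237), and *Fancm* with quantile normalization (0.0469). The cause was not tested. With the replicate number as a block, 31 repair genes were lower (17 and 14 by class), all 31 of them also called without it. The numbers do not mark pairs: deviations of same-numbered libraries correlated at 0.0739, -0.071 and -0.0352. Depth is unknown, and genes near 2 RPKM, such as *Rad51d*, are the least certain.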
